A study of Rattus norvegicus with 12 samples.

Results

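The genes described here are 9 that mark B cells and their progenitors, namely Ms4a1, Cd79a, Cd79b, Pax5, Ebf1, Rag1, Rag2, Vpreb1 and Dntt, measured in bone of the rat skull roof (calvaria). They were chosen by name from the array's gene annotation and not by a cut on their values, but with earlier results of these data known. They are 9 of 22718 genes tested, read by 14 of 45598 probes. Rats were 10 weeks old, and bone was taken 72 h after surgery. In laser bone a defect of 8 by 3 mm had been cut with an Er:YAG laser, whose infrared light removes bone by heating the water in it (20 Hz, 127 mJ output per pulse). In bur bone a defect of the same area had been drilled with a rotating bur. In control bone the periosteum, the membrane that covers bone, was taken off without ablation according to the treatment protocol, while the series design calls these samples non-treated, so whether all control bone had surgery was not settled here. No strain, sex or genotype is used here, and the labels do not say that the samples of a group are separate animals, so the p-values reflect how these samples vary, in part perhaps technically. Each group had 4 Agilent arrays of 1 colour, numbered 1 to 4 by the labels, and that number limits the precision.

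B cells arise in bone marrow. Progenitors first express the transcription factor gene Ebf1 and then Pax5, which fixes the B cell fate, while the recombinase encoded by Rag1 and Rag2 assembles the antibody genes and the enzyme encoded by Dntt adds bases at the joints. Vpreb1 encodes a part of the surrogate light chain, which lets a progenitor test its heavy chain, and mature B cells carry CD20, encoded by Ms4a1, and the signalling pair encoded by Cd79a and Cd79b. The marrow of flat bones of the skull is one of the places where B cells develop, and T cell progenitors in the thymus also use Rag1, Rag2 and Dntt.

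All 9 genes passed the detection filter, which asked for a signal well above background on 4 or more of the 12 arrays. The probes of 6 of them were well above background on every array. Those of Rag1 and Rag2 were not on laser replicate 3, and that of Vpreb1 was not on laser replicate 2. Probe positions are those of the array files, in build rn4, and sequences are those of the same files, given 5′ to 3′. The following probes are shown because the results turn on their genes. In the probes of Cd79a (chr1:80193363-80193422, plus strand) and Cd79b (chr10:95703614-95703673, minus strand) capitals mark the match to TATGANGACAT, the longest stretch that both probes share with at most 1 mismatch (N), which holds the codon of the second tyrosine of the signalling motif of each protein. Those letters occur on either strand in 27 of the 45598 probes (0.0592%). In the probe of Dntt (chr1:246231457-246231516, plus strand) capitals mark the stop codon. Ms4a1 has a probe at chr1:213763463-213763522 that stands for the gene because it is the brighter, and a dimmer one, shown here, at chr1:213764136-213764195, both on the minus strand. Rag1 (chr3:86781370-86781429, minus strand) and Rag2 (chr3:86773335-86773394, plus strand) are read from opposite strands, and their probes lie 7975 bases apart.
Ms4a1, dimmer probe: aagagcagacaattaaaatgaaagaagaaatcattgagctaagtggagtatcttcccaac
Cd79a: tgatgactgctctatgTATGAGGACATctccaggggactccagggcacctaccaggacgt
Cd79b: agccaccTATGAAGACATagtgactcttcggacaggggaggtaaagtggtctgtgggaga
Rag1: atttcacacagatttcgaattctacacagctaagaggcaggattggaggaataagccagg
Rag2: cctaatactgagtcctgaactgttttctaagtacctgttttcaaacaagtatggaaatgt
Dntt: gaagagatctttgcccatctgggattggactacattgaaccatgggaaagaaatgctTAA

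The probes of Pax5 (chr5:61089642-61089701, minus strand) and Vpreb1 (chr11:86147368-86147427, plus strand) are the only ones on the array under these gene names. RefSeq now gives the symbol Vpreb1a for the accession of the Vpreb1 probe. Ebf1 is read by 5 probes on the plus strand of chromosome 10, which span 395305 bases. The brightest of them, at chr10:29769561-29769620, stands for the gene, and its letters lie 228 to 169 bases before the RefSeq start of Ebf1. This is shown by the 250 bases of the RefSeq upstream window in build GRCr8 (chr10:29601671-29601920, plus strand), in which capitals mark the probe. Beside it stand the probes at chr10:30082092-30082151 and chr10:30154688-30154747 of rn4, whose differences had the other sign.
Ebf1, upstream window: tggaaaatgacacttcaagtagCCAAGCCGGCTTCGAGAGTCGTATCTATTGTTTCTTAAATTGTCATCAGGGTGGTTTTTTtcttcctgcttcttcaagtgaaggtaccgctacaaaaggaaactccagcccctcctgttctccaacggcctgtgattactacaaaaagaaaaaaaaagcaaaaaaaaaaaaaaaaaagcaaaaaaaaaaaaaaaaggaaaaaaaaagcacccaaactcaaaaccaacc
Ebf1, probe 3: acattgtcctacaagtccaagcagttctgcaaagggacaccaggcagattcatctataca
Ebf1, probe 4: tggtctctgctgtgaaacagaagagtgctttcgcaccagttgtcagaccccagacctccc

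The share of probes well above background ranged over the arrays from 58.1% to 67.0%, and no spot was saturated. All 4 control arrays lay on 1 slide and all laser and bur arrays on the other, and each slide was scanned once. Against control, the group thus cannot be told apart from the slide and its scan. Between laser and bur it cannot be told apart from the first position number in the array's barcode. The replicate number is also the second position number. Which of these is the row of the slide was not settled here. On control replicate 3 the mean of 15 erythroid markers, each centred over the 12 arrays, was 0.19, nearer to the laser and bur arrays than on the other control arrays, where it was 1.57 to 2.65. The bone label was checked against 10 bone cell markers, among them the collagen gene Col1a1 and the osteocyte gene Dmp1, and all 10 were detected.

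Every value below is a log2 signal relative to the 75th percentile of its array, and every difference is on the same log2 scale. With the brightest probe of each gene, the signals of all 9 averaged lower in laser than in control bone and lower in bur than in control bone, although the probes of Ebf1 did not share a sign. The median difference over the 9 genes was -1.48 for laser minus control and -1.28 for bur minus control, against medians of 0.02 and -9.7e-05 over all genes tested. A difference below 0 was found for 48.7% of all genes in the first comparison and 50% in the second. In bulk bone, fewer cells of a type and less RNA per cell cannot be told apart.

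In laser against control, limma called 3 of the 9 genes lower (Ms4a1, Rag2 and Dntt) and none higher, where 13% of all genes were called lower and 9.26% higher. With the replicate number in the fit it called 6 lower, against 14.6% of all genes, and Cd79a, Cd79b and Rag1 were the added ones. All 4 same-numbered pairs of arrays were lower in laser for 8 of the 9 genes, against 23.6% of all genes, the exception being Ebf1. The values of laser and control did not overlap for 2 of the 9 (Rag2 and Dntt), against 10.1% of all genes that lay wholly lower. In bur against control, 2 of the 9 genes were called lower (Ms4a1 and Pax5) and none higher, where 16.2% of all genes were called lower and 9.99% higher. Values did not overlap for those 2 genes, against 15.7% of all genes that lay wholly lower, so that the count was near the background. With the replicate number in the fit, 6 of the 9 were called lower in bur too, against 3976 of all 22718 genes. The numbers were not taken as a pairing there. Cd79a, Cd79b, Rag2 and Ebf1, by its brightest probe, were the added ones. Both comparisons share the control arrays. Every call made without the replicate number in the fit was lost when control replicate 1 or control replicate 4 was left out. That left 0 of the 9 genes called in each comparison. Calls over all genes became fewer too. In laser, 2958 genes were called lower with all arrays, 796 without control replicate 1 and 1143 without control replicate 4. In bur, these counts over all genes were 3678, 1911 and 2273. At an unadjusted limma p under 0.05 without control replicate 1, 5 of the 9 genes passed in each comparison. Of all 22718 genes, 7005 did so in laser and 7622 in bur. Without control replicate 4, 4 of the 9 passed in laser and 2 in bur, against 7453 and 8103 of all genes. The counts over all genes were large, so these unadjusted counts say little about the 9 genes. The count called among the 9 was also 0 in laser without laser replicate 2 or 3, and in bur without bur replicate 1, 2 or 3. Over all genes, 801 and 998 were then called lower in laser, and 2385, 3014 and 2197 in bur.

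**Figure D1:**
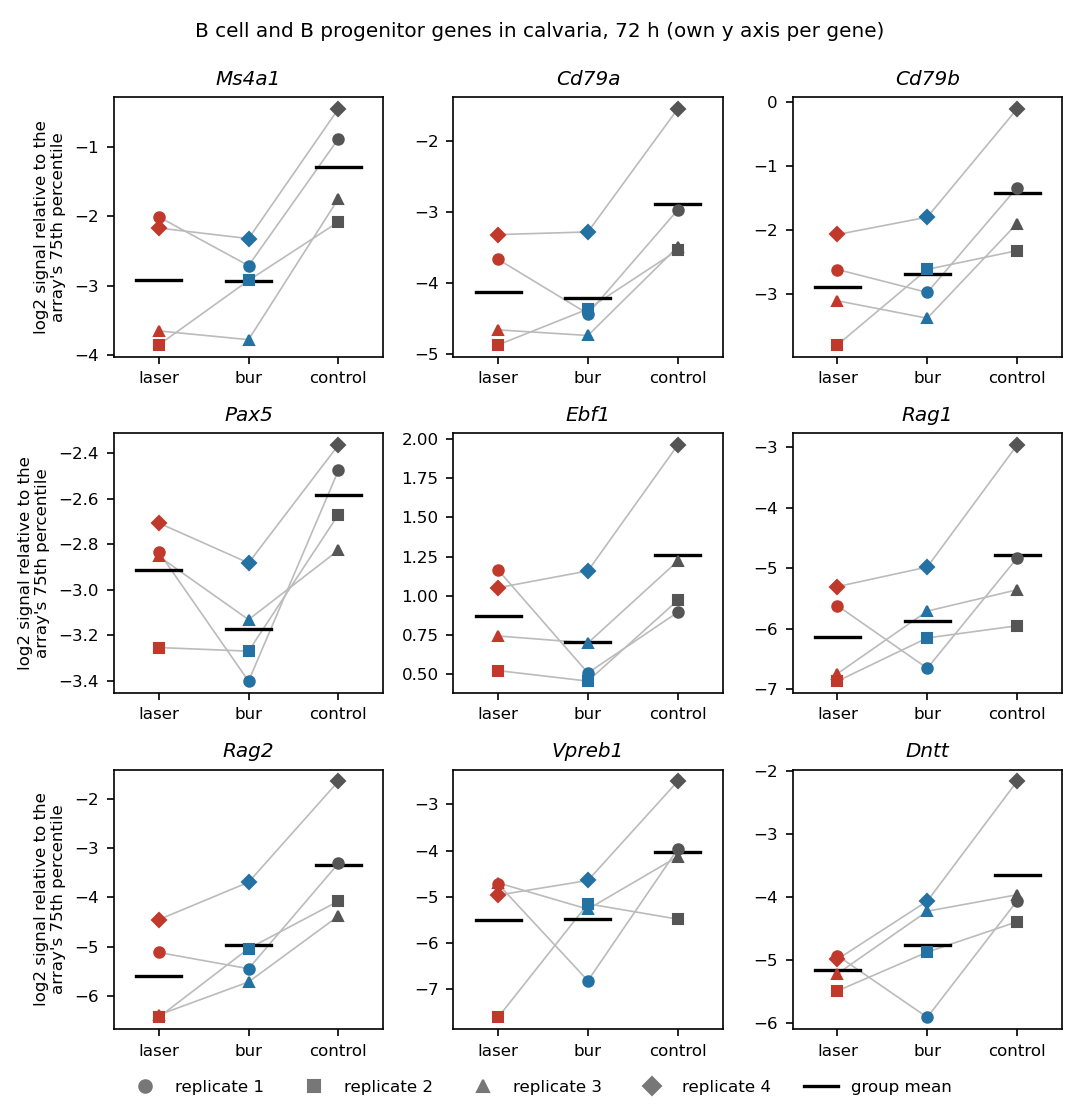
The log2 signal of each gene relative to the array's 75th percentile is plotted for the 4 laser, 4 bur and 4 control arrays, with symbols for the replicate number, grey lines joining equal numbers and black bars for group means. Control replicate 4 is the highest array for all 9 genes, and laser replicate 2 is the lowest laser array for all 9.

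Ms4a1, which encodes the B cell surface protein CD20, was lower in both ablated groups. It stood at -2.01, -3.86, -3.66 and -2.17 on laser replicates 1 to 4, at -2.71, -2.93, -3.78 and -2.32 on bur replicates 1 to 4, and at -0.88, -2.08, -1.74 and -0.45 on control replicates 1 to 4. The bur values lay wholly below the control values, and the laser values overlapped them in that laser replicate 1 was just above control replicate 2. Ms4a1 fell in laser bone by 1.64 (SE 0.50, 95% interval -2.74 to -0.53, limma adjusted p = 0.0400), a 3.11-fold lower signal. It fell in bur bone by 1.65 (SE 0.50, interval -2.75 to -0.54, limma adjusted p = 0.0344). The dimmer probe, tested over all probes, also passed, with -1.33 (SE 0.39, limma adjusted p = 0.0369) in laser minus control and -1.21 (SE 0.39, limma adjusted p = 0.0436) in bur minus control.

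Cd79a and Cd79b encode the pair of chains that carry the signal of the B cell receptor. Cd79a stood at -3.67, -4.88, -4.66 and -3.32 on the laser arrays, at -4.44, -4.37, -4.74 and -3.28 on the bur arrays, and at -2.97, -3.54, -3.49 and -1.54 on the control arrays. Replicate 4 of laser and of bur lay above control replicates 2 and 3, so the groups overlapped. The difference was -1.25 for laser minus control (SE 0.50, limma adjusted p = 0.0892) and -1.32 for bur minus control (SE 0.50, limma adjusted p = 0.0692), and neither passed. With the replicate number in the fit both differences had an SE of 0.22 and passed, laser with limma adjusted p = 0.00933 and bur with limma adjusted p = 0.00551.

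Cd79b gave -2.62, -3.80, -3.11 and -2.07 on the laser arrays, -2.98, -2.62, -3.38 and -1.80 on the bur arrays, and -1.34, -2.33, -1.90 and -0.11 on the control arrays. Again replicate 4 was the highest array of each group, and the groups overlapped through it. Laser minus control was -1.48 (SE 0.51, limma adjusted p = 0.0555) and passed with the replicate number in the fit (limma adjusted p = 0.0105). Bur minus control was -1.28 (SE 0.51, limma adjusted p = 0.0820) and also passed with the replicate number in the fit (limma adjusted p = 0.0117). Taken pair by pair, laser minus the same-numbered control ran from -1.96 to -1.21 for Cd79b and from -1.78 to -0.70 for Cd79a.

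Of the transcription factor genes, Pax5 varied least. It stood at -2.83, -3.25, -2.85 and -2.71 on the laser arrays, at -3.40, -3.27, -3.13 and -2.88 on the bur arrays, and at -2.48, -2.67, -2.83 and -2.37 on the control arrays. All bur arrays were below all control arrays, and Pax5 fell in bur bone by 0.59 (SE 0.17, interval -0.95 to -0.22, limma adjusted p = 0.0262), a 1.50-fold lower signal. The laser values overlapped those of control and the difference of -0.33 (SE 0.17, interval -0.69 to 0.04, limma adjusted p = 0.168) did not pass.

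Ebf1, needed for the first commitment to the B cell lineage, is also expressed by marrow stromal cells and fat cell precursors. Its brightest probe, the one upstream of the RefSeq start, stood at 1.16, 0.52, 0.74 and 1.05 on the laser arrays, at 0.51, 0.45, 0.70 and 1.16 on the bur arrays, and at 0.89, 0.97, 1.22 and 1.96 on the control arrays. The groups overlapped and neither difference passed, with -0.39 (SE 0.25, limma adjusted p = 0.271) for laser minus control and -0.56 (SE 0.25, limma adjusted p = 0.119) for bur minus control. The 5 probes did not share a sign. In the order of their positions they gave -0.39, -0.12, 0.38, 0.57 and -0.19 for laser minus control, and -0.56, -0.37, 0.43, 0.68 and -0.23 for bur minus control. None of these passed over all probes, and no direction is given for Ebf1. With the mean of the 5 probes in place of the brightest, laser minus control was 0.049.

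**Figure D2:**
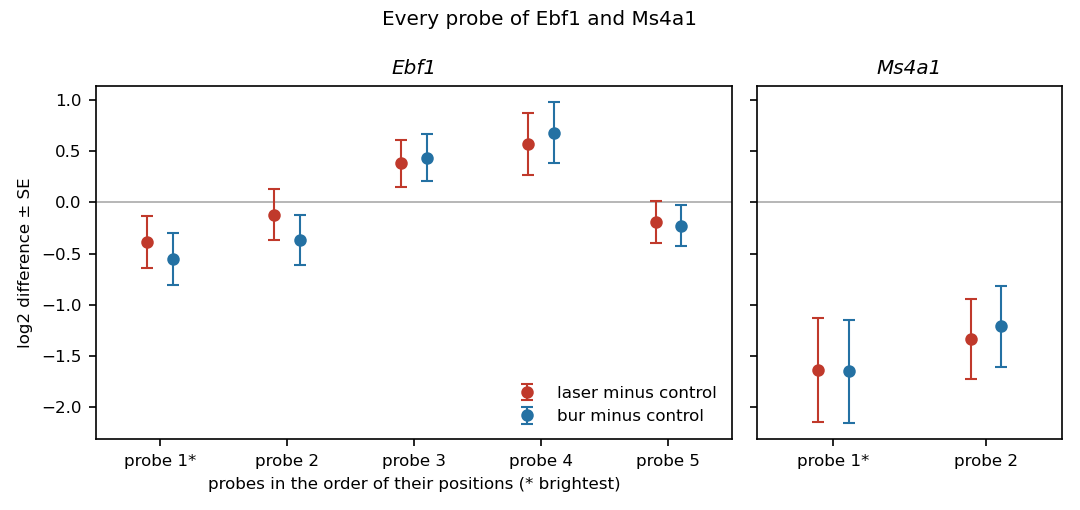
The log2 difference of laser minus control and of bur minus control is plotted with its SE for the 5 probes of Ebf1 and the 2 of Ms4a1, ordered by position on the chromosome, with an asterisk on the brightest. Probes 3 and 4 of Ebf1 are above 0 and the other Ebf1 probes below it, while both Ms4a1 probes are below 0.

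Rag2, the recombinase gene whose product binds modified histones and works with that of Rag1, stood at -5.12, -6.43, -6.38 and -4.45 on the laser arrays, at -5.45, -5.04, -5.71 and -3.70 on the bur arrays, and at -3.31, -4.08, -4.38 and -1.65 on the control arrays. All laser arrays were below all control arrays, while bur replicate 4 lay above control replicates 2 and 3. Rag2 fell in laser bone by 2.24 (SE 0.66, interval -3.68 to -0.80, limma adjusted p = 0.0346), a 4.73-fold lower signal, with the probe well above background on 3 of the 4 laser arrays. The size and the call depended on the processing, since laser minus control was -0.98 (limma adjusted p = 0.0603) after normexp background correction and -1.24 (limma adjusted p = 0.0576) on the deposited log2 values. Bur minus control was -1.62 (SE 0.66, limma adjusted p = 0.0871) and did not pass. With the replicate number in the fit Rag2 passed in bur (limma adjusted p = 0.00551) and in laser (limma adjusted p = 0.00452). Laser minus the same-numbered control ran from -2.80 to -1.80.

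Rag1, which encodes the subunit that cuts DNA, gave -5.62, -6.87, -6.74 and -5.31 on the laser arrays, -6.65, -6.15, -5.71 and -4.98 on the bur arrays, and -4.83, -5.95, -5.36 and -2.97 on the control arrays. Control replicate 4 stood 1.86 above the next control array, and both ablated groups overlapped with control. Laser minus control was -1.36 (SE 0.61, limma adjusted p = 0.123) and passed only with the replicate number in the fit (limma adjusted p = 0.0319). Bur minus control was -1.10 (SE 0.61, limma adjusted p = 0.196).

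Dntt encodes terminal deoxynucleotidyl transferase. Its values were close together on the laser arrays, at -4.93, -5.49, -5.22 and -4.99, and wider on the bur arrays, at -5.91, -4.88, -4.23 and -4.07. On the control arrays they were -4.06, -4.39, -3.97 and -2.17. Laser lay wholly below control, and Dntt fell in laser bone by 1.51 (SE 0.49, interval -2.58 to -0.44, limma adjusted p = 0.0465), a 2.85-fold lower signal. It did not pass after normexp background correction, at -0.74 (limma adjusted p = 0.0707), or on the deposited log2 values, at -0.93 (limma adjusted p = 0.0615). The difference of bur minus control was -1.12 (SE 0.49, limma adjusted p = 0.107) and did not pass.

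Vpreb1 ranged over 5.12 on the 12 arrays. It stood at -4.73, -7.62, -4.70 and -4.97 on the laser arrays, at -6.82, -5.16, -5.27 and -4.65 on the bur arrays, and at -3.97, -5.49, -4.13 and -2.50 on the control arrays. Laser replicate 2, where the probe was not well above background, lay far below the other laser arrays, and the groups overlapped. Neither difference passed, with -1.48 (SE 0.76, limma adjusted p = 0.172) for laser minus control and -1.45 (SE 0.76, limma adjusted p = 0.171) for bur minus control.

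**Figure D3:**
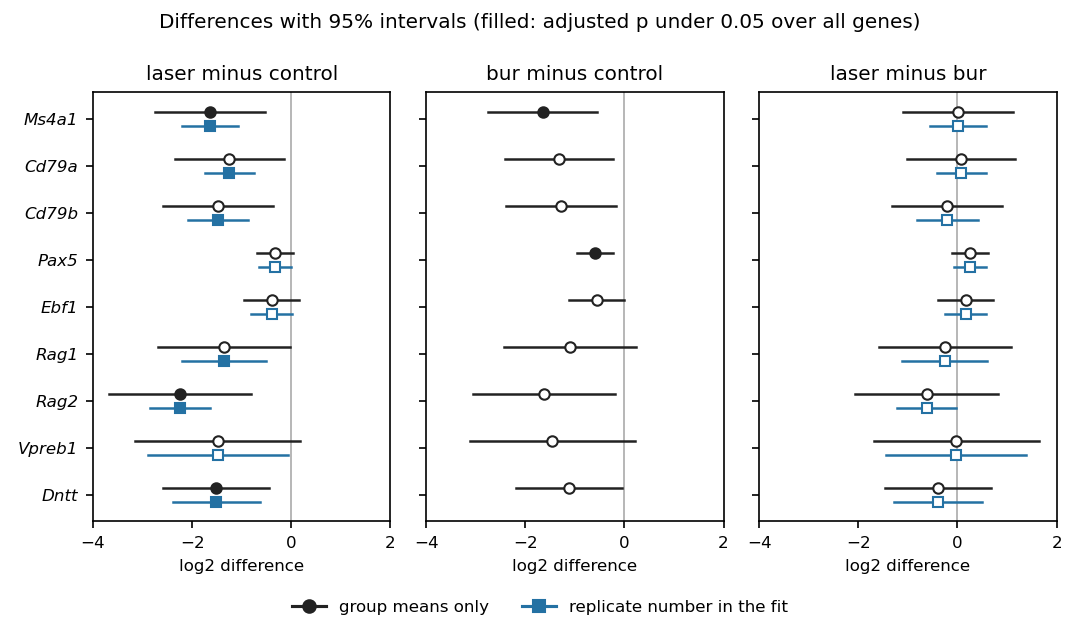
Log2 differences with 95% intervals are plotted for the 9 genes in laser minus control, bur minus control and laser minus bur. Circles come from the fit of group means and squares from the fit that also holds the replicate number. Filled symbols passed at an adjusted p under 0.05, so that 3 circles and 6 squares are filled for laser and 2 circles for bur. Squares are not drawn for bur minus control, where the fit with the replicate number also called 6 of the 9 genes lower.

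Laser and bur were also compared with each other, to see whether the tool made a difference for these genes. None of the 9 was called, and none of all genes was either (0%). At an unadjusted p under 0.05, limma called 0 of the 9 genes without and 1, Rag2, with the replicate number in the fit, against 2.53% and 3.22% of all genes. Differences ran from -0.62 for Rag2 to 0.26 for Pax5, 5 of the 9 were below 0, against 45.9% of all genes, and the limma adjusted p of each was 0.9998. The intervals do not show that the tools act alike. That of Rag2 was -2.06 to 0.81, that of Ms4a1 -1.09 to 1.12 around a difference of 0.01, and that of Pax5 -0.10 to 0.62. All 4 same-numbered pairs were lower in laser for 0 of the 9 genes, against 4.75% of all genes, and higher in laser for 1, Pax5, against 9.3%. Values of the groups overlapped for all 9 genes, where 0.581% of all genes lay wholly lower and 1.57% wholly higher in laser.

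The arrays differed in the same way for most of the 9 genes. Control replicate 4 was the highest of the 12 arrays for all 9, bur replicate 4 was the highest bur array for all 9, and laser replicate 2 was the lowest laser array for all 9 and the lowest of the 12 for 6. Averaged over the 9 genes, each centred over the 12 arrays, laser replicates 1 to 4 stood at -0.02, -1.28, -0.71 and 0.14. Bur replicates 1 to 4 stood at -0.85, -0.42, -0.57 and 0.41, and control replicates 1 to 4 at 0.80, 0.07, 0.40 and 2.04. Laser replicates 1 and 4 and bur replicate 4 thus reached the level of control replicates 2 and 3 or came near it. The standard error of a difference was 1.17 to 2.49 times as large without as with the replicate number in the fit.

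Without control replicate 4, and with the brightest probe for Ebf1, laser minus control was below 0 for all 9 genes, with differences of -1.67 (Rag2) to -0.16 (Ebf1) with a median of -0.97, and none passed. Bur minus control then ran from -1.37 (Ms4a1) to -0.32 (Ebf1) with a median of -0.84, and none passed. With the replicate number in the fit and number 4 left out of all 3 groups, 2 of the 9 genes were called lower in laser. They were Rag2 at -2.05 (limma adjusted p = 0.0349) and Ms4a1 at -1.61 (limma adjusted p = 0.0455), where 608 of all 22718 genes were called lower. In bur 3 of the 9 were called lower in that fit, against 1649 of all genes. This alternative was chosen after seeing the data. Without control replicate 3, whose erythroid mean was low, 4 of the 9 genes were called lower in each comparison. Of all 22718 genes, 4133 were then called lower in laser and 4603 in bur.

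The authors' deposited tables of the same comparisons call 6 of the 9 genes lower in laser than in control, against 14.8% of the lines in that table, and 6 lower in bur than in control, against 16.9%. In the authors' deposited table for laser and control, Ms4a1 had a log2 change of -1.44 and an adjusted p of 0.00345, and Rag2 one of -1.24 with 0.00720. Their table for bur and control, also the authors' deposited table, gives Cd79a -1.04 with an adjusted p of 0.00323. It gives the brightest Ebf1 probe -0.60 with 0.0142. In the same authors' deposited table the Ebf1 probe at chr10:30164806 had -0.27 with an adjusted p of 0.132. That at chr10:29796319 had 0.09 with 0.635, so the probes did not share a sign there either. The counts of 6 take the brightest probe of each gene. Every p in the authors' deposited tables was recovered, to within 5.01e-08, by limma on the authors' log2 values with the replicate number as a term over all 12 arrays, and without that term the largest gap was 0.583.

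Other genes of the lineage were read from lists. Of 23 measured mature B cell and B cell receptor genes, 7 were called lower in laser and 5 in bur than in control, none was called higher, and the medians were -0.89 and -0.68. Of all genes 13% were called lower in laser and 16.2% in bur, so the bur count was near the background. Cr2, which encodes a complement receptor of B cells, fell, at -2.26 (SE 0.66) in laser minus control and -2.49 (SE 0.66) in bur minus control. Cr2 was dim, at -7.95 to -5.83 on laser and -9.29 to -6.82 on bur arrays. The Vpreb1 probe was not well above background at -7.62 on laser replicate 2, so the size of the Cr2 difference is uncertain. Cd22, a brake on the receptor, fell, at -1.91 (SE 0.47) in laser and -2.06 (SE 0.47) in bur minus control. Bank1, a scaffold of receptor signalling, fell, at -1.95 (SE 0.42) in laser and -1.75 (SE 0.42) in bur minus control. These 3 passed in both comparisons, with limma adjusted p of 0.0336 or lower. The signalling genes Lyn and Blnk, which myeloid cells also use, did not pass, at -0.01 and 0.09 in laser minus control and -0.05 and -0.08 in bur minus control. With the replicate number in the fit, 11 of the 23 were called lower in laser and 10 in bur.

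Of 15 measured B progenitor genes, 2 were called lower and 1 higher in laser and 4 lower in bur than in control, with medians of -0.46 and -0.56. The laser count was near the 13% of all genes called lower there, and in bur 16.2% of all genes were called lower. Bach2, which encodes a repressor of plasma cell fate, fell, at -1.64 (SE 0.49) in laser minus control and -1.63 (SE 0.49) in bur minus control, and Tcf3, a partner of Ebf1, fell, at -0.66 (SE 0.20) in laser and -0.74 (SE 0.20) in bur minus control. Lef1 fell in bur by 1.02 (SE 0.32, limma adjusted p = 0.0360) and stood at -0.89 (limma adjusted p = 0.0625) in laser minus control. Ikzf3 fell in bur by 1.38 (limma adjusted p = 0.0455) and stood at -1.37 (limma adjusted p = 0.0519) in laser minus control. The gene called higher in laser was Mme, at 0.62 (limma adjusted p = 0.0195), which stromal and bone cells also express; it lies outside the rule for named genes and was named after its value was seen. With the replicate number in the fit, 7 of the 15 were lower in laser and 1 higher, and 8 were lower and 0 higher in bur. Il7r, the receptor gene for the growth factor of progenitors, did not pass, at -0.06 in laser minus control and 0.08 in bur minus control.

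None of 8 measured plasma cell genes was called in either comparison (medians -0.14 and -0.08). Tnfrsf17, a plasma cell receptor gene, had the smallest p among them, with -1.12 (SE 0.38, limma adjusted p = 0.0540) in laser minus control and -0.80 (SE 0.38) in bur minus control. With the replicate number in the fit it passed in laser (limma adjusted p = 0.0226). Of 8 partners of the recombinase in joining DNA ends, which cells of all kinds express, none was called in laser (median -0.08). Nhej1 alone was called in bur, where it rose by 0.68 (SE 0.22, limma adjusted p = 0.0434) and where 9.99% of all genes were called higher.

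Among 9 niche factors, which stromal cells make for B cells and their progenitors, 3 fell and 1 rose in each comparison, with medians of 0.08 and 0.09. Of all genes, 13% were called lower and 9.26% higher in laser, and 16.2% lower and 9.99% higher in bur. The count that rose was thus near the background. Cxcl12, which holds progenitors in the marrow, fell, at -2.02 (SE 0.45, limma adjusted p = 0.0168) in laser minus control and -1.50 (SE 0.45) in bur minus control. Vcam1, an adhesion gene, fell, at -1.32 (SE 0.37) in laser and -1.30 (SE 0.37) in bur minus control, and Kitlg, which encodes stem cell factor, fell, at -0.94 (SE 0.17) in laser and -0.73 (SE 0.17) in bur minus control. Cxcl13, which attracts mature B cells, rose by 2.36 (SE 0.75, limma adjusted p = 0.0437) in laser and by 2.56 (SE 0.75, limma adjusted p = 0.0292) in bur. Il7, the growth factor of progenitors, did not pass, at 0.10 in both.

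Many markers of other blood cells were also called lower. Of all genes, 13% were called lower and 9.26% higher in laser, and 16.2% lower and 9.99% higher in bur. All 15 measured erythroid markers fell in laser (median -2.47) and in bur (median -2.41), among them Gata1, the erythroid transcription factor gene, at -2.72 (SE 0.71) in laser and -2.82 (SE 0.71) in bur minus control. Of 12 neutrophil markers 6 fell in laser and 5 in bur (medians -1.53 and -1.39), among them the granule gene Camp, at -1.92 (SE 0.52) in laser and -1.89 (SE 0.52) in bur minus control. Among 13 markers of T cells and NK cells, laser had 6 that fell and 1 that rose, and bur had 6 that fell and 2 that rose (medians -0.72 and -0.76). Cd3e, a T cell receptor chain gene, fell, at -1.95 (SE 0.48) in laser and -1.48 (SE 0.48) in bur minus control. Its signal was dim, at -8.19 to -5.53 on laser arrays, so the size of that difference is uncertain. Cd2 rose in laser, at 1.27 (limma adjusted p = 0.0414). Cd8a and Cd8b rose in bur, at 1.44 (limma adjusted p = 0.0433) and 0.57 (limma adjusted p = 0.0455). Of 10 bone cell markers 5 rose in laser and none was called in bur (medians 0.69 and 0.24). The osteocyte gene Phex rose by 1.62 (SE 0.30) in laser and stood at 0.89 (SE 0.30, limma adjusted p = 0.0503) in bur minus control. None of the 10 was called between laser and bur, so a difference between the tools is not shown.

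The summed level of those markers, as the mean of a list on an array with each gene centred over the 12 arrays, was set beside that of the 9 genes. For the erythroid list it ran from -1.42 to 0.43 on laser, from -2.23 to 0.31 on bur and from 0.19 to 2.65 on control arrays. For the neutrophil list it was -1.41 to 0.10 on laser, -0.90 to 0.32 on bur and -0.10 to 1.83 on control arrays. Control replicate 4 was the highest array in both lists, as for the 9 genes. For the T cell and NK cell list the range was -0.67 to 0.00 on laser, -0.46 to 0.18 on bur and 0.25 to 0.58 on control arrays. The mean of the 9 genes was highest on replicate 4 within laser and within bur, and that of the erythroid list was not. The erythroid mean was -1.30 on laser replicate 4, against 0.43 on laser replicate 1. It was -0.58 on bur replicate 4, against 0.31 on bur replicate 2. For the bone cell list it was -0.01 to 0.72 on laser, -0.38 to 0.22 on bur and -0.57 to -0.14 on control arrays. Their part in the lower signal of the 9 genes was not tested.

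**Figure D4:**
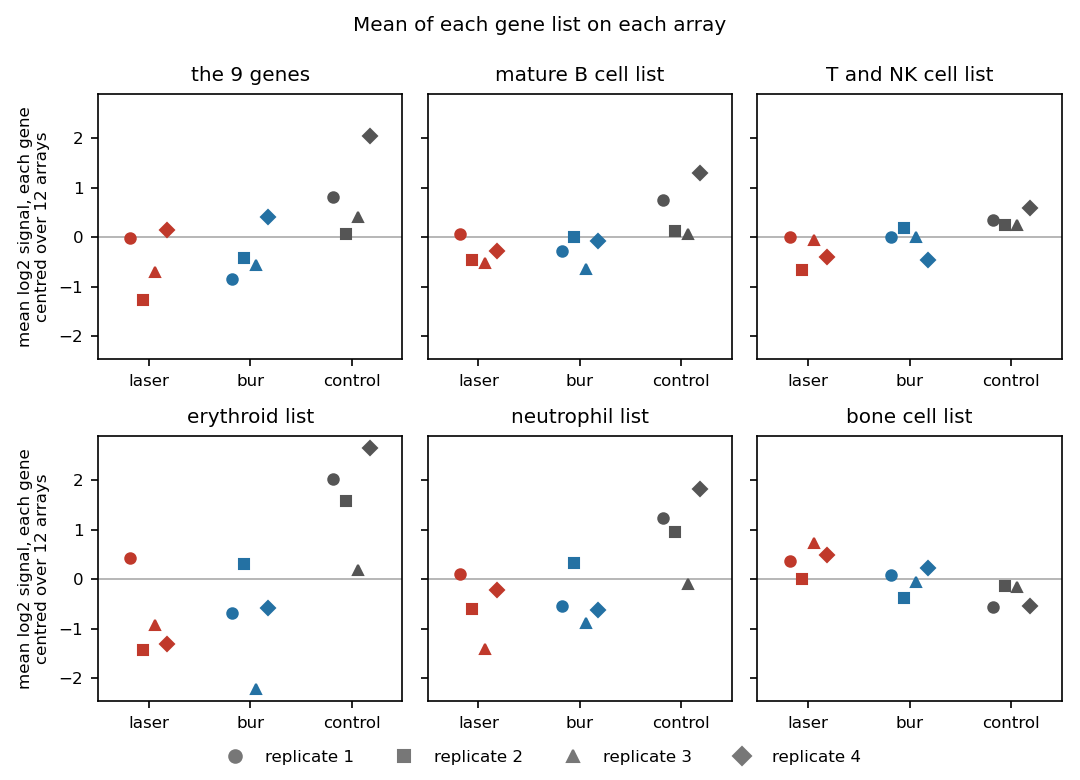
The mean log2 signal of the 9 genes and of 5 marker lists, each gene centred over the 12 arrays, is plotted for every laser, bur and control array with a symbol for its replicate number. Control replicate 4 is the highest array for the 9 genes (2.04), the erythroid list (2.65) and the neutrophil list (1.83), and is low for the bone cell list (-0.55).

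The symbols most like the 9 genes over the 12 arrays, by Pearson correlation with their centred mean, were Pou2af1 (0.985), Fcrla (0.978), Spib (0.973), Tmprss3 (0.971), Klhl14 (0.963) and Zfp41 (0.962). These arrays share slides and groups, so the values are a description. Tmprss3 fell, at -2.18 (SE 0.62, limma adjusted p = 0.0310) in laser minus control and -1.99 (SE 0.62) in bur minus control, and Klhl14 fell, at -1.50 (SE 0.45) in laser and -1.56 (SE 0.45) in bur minus control. Pou2af1, a coactivator gene of B cells, did not pass, at -1.47 (SE 0.55, limma adjusted p = 0.0711) in laser minus control and -1.42 (SE 0.55, limma adjusted p = 0.0737) in bur minus control. Spib, Fcrla and Zfp41 did not pass either, at -1.54, -1.24 and -0.57 in laser minus control. With the replicate number in the fit, Pou2af1, Spib and Fcrla passed in laser and in bur, with limma adjusted p of 0.0116 or lower. Zfp41 is not given for that fit.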

How the data were processed

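Rat calvarial RNA was labelled with Cy3 from 200 ng of total RNA, per the labels' protocols, and hybridised to 12 Agilent arrays, 4 per group. The authors deposited scanner output whose processed intensity is background-subtracted within each array and not normalized between arrays, per the file headers (Agilent Feature Extraction 11.0.1.1, probe positions in rn4). A further deposited table holds log2 values that its name calls quantile-normalized, and 3 deposited tables hold the log2 change and p-value of every probe in each comparison. The steps behind those log2 values were not given in the sources used here. The comparison tables repeat 36 per-sample columns, which were not used.

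Here, the processed intensity was divided by its 75th percentile on the array (control spots left out) and put on the log2 scale. Spots flagged as outliers were left out and spots of a probe averaged. A probe was kept if well above background on at least 4 of 12 arrays (29775 probes), and the brightest kept probe stood for a gene name (22718 genes). The test was limma 3.58.1 under R 4.3.3 (lmFit and eBayes, group means, all 12 arrays, two-sided, Benjamini-Hochberg over all genes, threshold 0.05), and the fit was tested on simulated data. Arrays of the same number had deviations from the group means that correlated at 0.34, 0.18, 0.22 and 0.13 between laser and control and 0.25, 0.24, 0.16 and 0.34 between laser and bur, all above 0.1, so the numbers were taken to pair laser with each. Between bur and control the correlations were 0.28, -0.05, 0.28 and 0.08, and the numbers were not taken as a pairing there. These correlations come from the same data, and those between arrays of unlike number were not set beside them. Whether the numbers mark pairs was thus not settled.

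The 9 genes, the lists and the alternatives were chosen with earlier results of these data known. The genes named are the 9, up to 4 genes per list past the threshold with the largest change (with none, that of smallest p), and the 6 symbols most correlated with the 9. Lyn, Blnk, Il7r, Il7, Mme, Cd2, Cd8a, Cd8b, Col1a1 and Dmp1 lie outside this rule or were named as examples after their values were seen. Accessions of 10 of the 14 probes were found in the RefSeq table of GRCr8, 9 with the same symbol, and 5 of the 9 genes have a RefSeq upstream window. A result that the rule would name is not reported here.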

Additional observations from a re-analysis of the deposited data

Results flagged for a closer look

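In each group of 4 arrays the highest and lowest value were set against the gap to the nearest other array, for the 9 genes, their other probes and the list genes named above. Of 132 groups of values 8 held an array far from the others, and chance gives about 1 in 20. Among the 9 genes this was Vpreb1 on laser replicate 2, at -7.62, where the other laser arrays were at -4.97 to -4.70. The Ebf1 probe at the highest position stood at -0.58 on bur replicate 4, against -0.96 to -0.91 on the other bur arrays. Laser replicate 1 stood apart for Cr2, at -5.83 against -7.95 to -7.90, and for Gata1, at -1.67 against -4.13 to -4.07. Cd247 was low on bur replicate 4, at -4.30 against -3.59 to -3.47, and high on control replicate 1, at -2.05 against -2.71 to -2.61. Control replicate 3 stood apart for Cxcl13, at -2.92 against -5.85 to -5.42, and for S100a9, at 6.38 against 7.67 to 7.91.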

How the results depend on the processing

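Against control, the differences stayed below 0 under every alternative that tested the gene, except Ebf1 in laser, which was 0.049 with the mean of its kept probes, with and without the replicate block. A filter asking for all 12 arrays tested 6 of the 9 genes. How many of the 9 genes passed was less stable, and the cause of those moves was not tested beyond what each alternative changes by construction. In laser minus control (3 called) the count was 0 with no detection filter, where more genes were tested. It was also 0 with only the 2 groups compared, where fewer arrays were used. At an unadjusted p under 0.05, limma gave 6 and 5 of the 9 genes there, against 9544 of 34912 and 7732 of 22718 over all genes. Called lower over all genes were 1973 with no detection filter and 1107 with only the 2 groups. The count called was 2 after normexp and 2 on the deposited log2 values, where Ms4a1 and Cd79b were called and Rag2 and Dntt were not. Over all genes, 2438 of 22718 and 2880 of 20522 were called lower there. The count of the 9 was 6 with the replicate block, also on the deposited log2 values or the mean of the kept probes. It was 7 with the block after normexp, and 5 with the block and number 1 or number 3 left out of all groups. With the block, 3316 of all 22718 genes were called lower, and 3228 of 20522 on the deposited values. The block called 2967 on the mean of the kept probes, 2937 after normexp, and 1182 or 3001 without number 1 or 3. In bur minus control (2 called) the numbers were not taken as a pairing. There the replicate block gave 6, the block on deposited values 6, on the mean of the kept probes 5 and after normexp 9. It gave 5 with number 2 or number 3 left out, while normexp without the block gave 8. Over all genes the block called 3976 of 22718 lower, and 3674 of 20522 on deposited values. It called 3580 on the mean of the kept probes, 6837 after normexp, and 2225 or 3464 without number 2 or 3. Normexp without the block called 6306 lower, against 3678 in the main fit, so its 8 of the 9 met a raised background. The settings that join the block with another choice were chosen after seeing the data. Normexp moved the median of all genes to -0.08 in laser minus control, -0.24 in bur minus control and 0.13 in laser minus bur. Leaving out 1 array gave 0 to 4 genes in either comparison with control. Ms4a1 lost its call in laser on removal of 6 of the 12 arrays in turn, Rag2 of 4 and Dntt of 8, and Ms4a1 and Pax5 lost theirs in bur on removal of 5. Laser minus bur gave 0 under every alternative run, but signs turned. Ms4a1 was -0.019 with quantile normalization, -0.0015 with the percentile over probes detected on all arrays, -0.054 with the mean of the kept probes (block or not), and -0.22, -0.025 and -0.033 with the block and number 1, 3 or 4 left out. With the block, Cd79a was -0.15 without number 1, Cd79b 0.12 without number 2, and Vpreb1 0.78 without number 2 and 0.068 without number 4. After normexp, with or without the block, Rag1 was 0.14, Rag2 0.041, Vpreb1 0.18 and Dntt 0.038. Leaving out 1 array gave -0.29 to 0.33 for Ms4a1, -0.20 to 0.39 for Cd79a, -0.48 to 0.094 for Cd79b, -0.53 to 0.039 for Rag1 and -0.48 to 0.68 for Vpreb1. With 4 arrays a group the precision is low, and Rag1, Rag2 and Vpreb1 are near background on a laser array.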
